A study of Mus musculus with 14 samples.

Results

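Pyroptosis and necroptosis are the inflammatory forms of programmed cell death, and the RNA of 10 genes of their machinery was followed in mouse heart after local irradiation. The genes were taken by symbol from the count table: Nlrp3, Pycard, Casp1, Casp4, Gsdmd and Il18 of the inflammasome pathway, and Casp8, Ripk1, Ripk3 and Mlkl of the necroptosis pathway. All 10 were found among 54532 genes, and all 10 passed the filter on low counts, which kept 16034 genes. The hearts came from 14 wild-type (WT) male C57BL/6J mice, 1 library per mouse. Mice were 8 weeks old at irradiation. IRR mice received 30 Gy of cobalt γ-rays on the anterior chest with the rest of the body shielded by lead, and Control mice received none. Hearts were taken after 1 day (Control_1d and IRR_1d, n = 3 each) or after 6 weeks (Control_6w and IRR_6w, n = 4 each). A p-value here weighs a difference between groups against the spread between mice within groups. In the edgeR fit used below, that spread is estimated over all 4 groups together. The RNA is that of cardiac tissue with all its cell types, so fewer cells of a type and less RNA per cell cannot be told apart.

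In pyroptosis, a sensor such as NLRP3 assembles with the adaptor ASC, the product of Pycard, and this inflammasome activates caspase-1. Caspase-1 matures interleukin-1β and interleukin-18 and cuts gasdermin D, whose amino-terminal part forms pores in the plasma membrane. Mouse Casp4, also known as caspase-11, encodes the caspase that senses cytosolic lipopolysaccharide and cuts gasdermin D without the NLRP3 inflammasome. In necroptosis, the kinases RIPK1 and RIPK3 form a complex and RIPK3 phosphorylates MLKL, which then permeabilizes the membrane. Caspase-8 cuts RIPK1 and RIPK3 and so holds necroptosis back. These steps run on cleavage, phosphorylation and assembly of proteins, which RNA levels do not measure. In heart, macrophages and other immune cells are a known source of inflammasome transcripts, and RIPK3 and MLKL are also studied in cardiomyocytes.

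The promoters of Casp1 and Casp4, which lie side by side on chromosome 9, and of Nlrp3, Ripk3 and Mlkl are shown because the values below turn on these genes and because Casp4 and Nlrp3 hold a motif match. Each run is the 250 bases before a RefSeq start (GRCm38.p6), 5′ to 3′ on the strand of the gene, and capitals mark matches to the NF-κB consensus. The windows are chr9:5298267-5298516 (plus strand) for Casp1, chr9:5308599-5308848 (plus strand) for Casp4, chr11:59541319-59541568 (plus strand) for Nlrp3, chr14:55788858-55789107 (minus strand) for Ripk3 and chr8:111338206-111338455 (minus strand) for Mlkl.
Casp1: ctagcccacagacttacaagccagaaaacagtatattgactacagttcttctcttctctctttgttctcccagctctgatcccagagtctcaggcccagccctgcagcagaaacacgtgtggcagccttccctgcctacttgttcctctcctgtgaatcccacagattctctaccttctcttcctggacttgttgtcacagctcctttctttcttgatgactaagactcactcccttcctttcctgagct
Casp4: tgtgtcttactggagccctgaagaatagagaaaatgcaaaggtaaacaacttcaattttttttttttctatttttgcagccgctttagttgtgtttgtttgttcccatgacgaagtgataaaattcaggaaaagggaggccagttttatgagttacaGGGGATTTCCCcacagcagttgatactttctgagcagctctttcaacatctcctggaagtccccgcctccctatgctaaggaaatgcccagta
Nlrp3: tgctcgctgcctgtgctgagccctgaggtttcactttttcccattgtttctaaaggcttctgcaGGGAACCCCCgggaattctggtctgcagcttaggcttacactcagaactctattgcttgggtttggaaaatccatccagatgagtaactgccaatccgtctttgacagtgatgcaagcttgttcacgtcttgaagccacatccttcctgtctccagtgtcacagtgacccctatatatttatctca
Ripk3: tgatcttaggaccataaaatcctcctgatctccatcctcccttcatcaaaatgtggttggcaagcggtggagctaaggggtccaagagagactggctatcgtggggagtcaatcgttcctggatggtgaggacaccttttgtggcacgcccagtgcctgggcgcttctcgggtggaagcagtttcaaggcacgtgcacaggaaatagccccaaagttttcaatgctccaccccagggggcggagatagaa
Mlkl: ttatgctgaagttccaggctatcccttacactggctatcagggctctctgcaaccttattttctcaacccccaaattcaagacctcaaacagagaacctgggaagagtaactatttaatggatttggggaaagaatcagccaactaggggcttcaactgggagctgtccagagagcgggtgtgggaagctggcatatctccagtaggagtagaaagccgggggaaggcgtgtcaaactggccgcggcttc

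Promoters of 9 of the 10 genes were matched in the RefSeq table, in 12 windows, and Gsdmd was not matched. The motifs, searched on both strands, were GAAANNGAAA (the core of the interferon-stimulated response element), TTCNNNGAA (the interferon gamma-activated site) and the NF-κB consensus. The overlapping NF-κB matches of Casp4 begin 92 and 93 bases before its start, and that of Nlrp3 begins 186 bases before its start on the minus strand. Such a match occurs in 3.9% of 32851 promoter windows of the same length. The gamma-activated site was matched in 1 window, a second Ripk1 window 511 bases from the deposited gene start, against 7.02% of all windows. The response element was matched in 0 of the 12 windows, against 2.98% of all. These matches describe letters in the windows only.

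Library totals ranged from 13336746 to 16837265 counts. In Control_1d replicate 1, IRR_6w replicate 3 and IRR_6w replicate 4, 30.7, 21.6 and 8.62% of the genes with a mean of 2 to 5 CPM (counts scaled to the library size) had 0 counts, against at most 1.98% elsewhere. The summed level of 6 thymus genes was 2690 CPM in Control_6w replicate 3 and at most 40.3 CPM in the other libraries, and that of 6 T cell genes was 1386 CPM and at most 22.8. In IRR_6w replicate 1, 6 genes of lung epithelium reached 357 CPM, where the other libraries had at most 29.4, and 4 atrial genes reached 2822 CPM, where the others had at most 1168. All 8 cardiomyocyte markers were counted in every library, with a summed level of 4784 to 40710 CPM. Apart from that band of 2 to 5 CPM, CPM are given on TMM-scaled library sizes, where 1 CPM stood for 9.93 to 21.1 counts.

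The 10 genes were expressed at low to moderate levels in these hearts. Per kilobase of the deposited gene length, Casp8 had the highest mean level of the 14 libraries at 8.39 ± 4.02 FPKM (SD), followed by Casp1 at 4.55 ± 1.99, Gsdmd at 3.92 ± 1.45, Mlkl at 3.46 ± 1.86 and Ripk3 at 3.26 ± 2.66 FPKM. Ripk1 had 2.45 ± 0.534, Pycard 2.39 ± 2.80, Casp4 1.996 ± 1.13, Il18 1.73 ± 1.52 and Nlrp3 0.328 ± 0.386 FPKM. Every step between neighbours in this order was smaller than the larger of their SDs. The order depends on the length used. With the median length of the coding transcripts of each gene, an alternative chosen after seeing the data, Casp4 moved from rank 8 to rank 3, at 5.16 FPKM, because its deposited length of 3710 bases exceeds the 1435 bases of its coding transcript. Casp8 stayed first and Nlrp3 last.

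**Figure D1:**
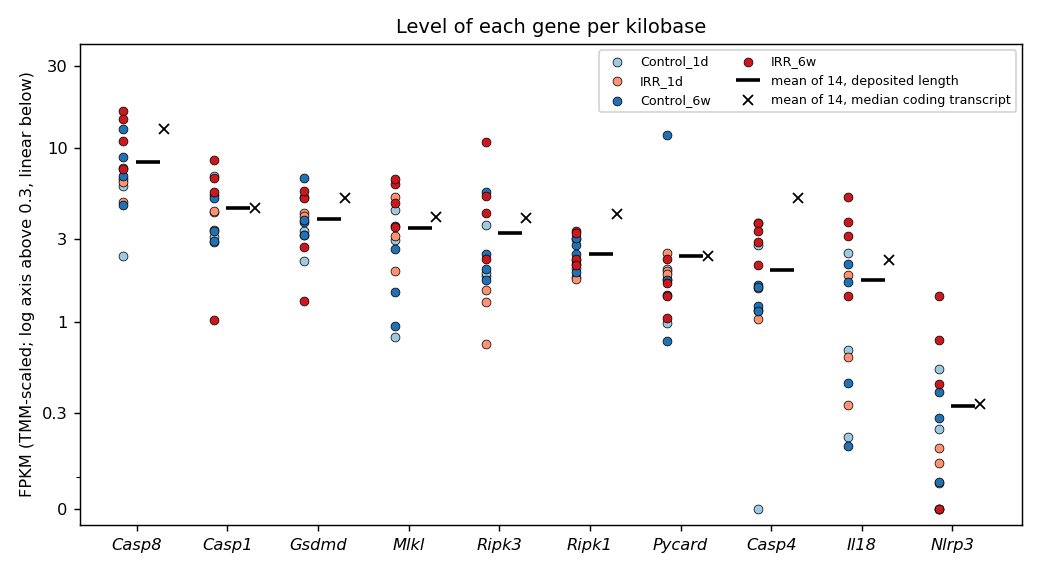
Level of each gene in FPKM in all 14 hearts (points, coloured by group) on an axis that is logarithmic above 0.3 and linear below. Bars mark the mean with the deposited gene length and crosses the mean with the median coding transcript length, and Casp8 is highest and Nlrp3 lowest with both.

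Variation between mice of a group was large for the scarce genes. Nlrp3 and Il18 had 309 and 412 counts in all 14 libraries together, and their SD was 39.5 to 102% and 47.0 to 106% of the group mean in CPM. For Ripk1, with 4359 counts, it was 8.30 to 26.2%. The lowest SE of a log2 fold change between irradiated and control mice at 6 weeks was 0.253 for Ripk1 and the highest 1.47 for Nlrp3.

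At 6 weeks, the log2 fold change of IRR_6w against Control_6w was positive for 8 of the 10 genes, with a median of 0.76 against -0.09 over all tested genes, but 0 of 10 passed the test. The call rule asked for a level more than 2 times or less than 0.5 times the control, together with an adjusted p under 0.05 in edgeR's quasi-likelihood test (Benjamini-Hochberg, all tested genes), and 0.256% of all genes met it. DESeq2 and limma also called 0 of the 10. At an unadjusted p under 0.05, 1 of 10 was past the limit (Mlkl), against 8.81% of all genes. The groups did not overlap for 1 of 10 (Casp4), against 5.72% of all genes. Both shares rest on 1 gene and are near the background.

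Mlkl encodes the pore-forming effector of necroptosis (chromosome 8, 111311797 to 111338177, minus strand). Its level was 11.1, 14.4, 8.14 and 15.4 CPM in the IRR_6w hearts and 3.43, 6.05, 2.16 and 8.22 CPM in the Control_6w hearts. Only the lowest irradiated and the highest control heart crossed. The log2 fold change was 1.31 (SE 0.555, 95% interval 0.12 to 2.49, unadjusted p = 0.0333, edgeR adjusted p = 0.503), and an exact permutation test, two-sided, gave p = 0.05714, where 0.02857 is the smallest p that 4 against 4 can give. Leaving out each library in turn gave 1.06 to 1.67.

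Casp4 (chromosome 9, 5308828 to 5336783, plus strand) stood at 13.9, 12.3, 7.89 and 10.7 CPM in IRR_6w and at 6.01, 4.59, 4.27 and 5.93 CPM in Control_6w. Every irradiated heart was above every control heart, which gives the smallest possible exact permutation p of 0.02857. In the fit across all genes the log2 fold change was 1.11 (SE 0.876, edgeR adjusted p = 0.772). This SE also carries the spread of the 1-day groups, where Casp4 had 0 counts in Control_1d replicate 1. The log2 fold change was again 1.11 with only the groups compared (edgeR adjusted p = 0.384) and without Control_1d replicate 1 (edgeR adjusted p = 0.386). Over all alternatives tried the adjusted p ran from 0.384 to 0.918. The neighbouring Casp1 (chromosome 9, 5298517 to 5307265, plus strand), the inflammasome caspase, did not separate the groups. It had 8.34, 10.1, 1.53 and 12.8 CPM in IRR_6w against 8.07, 4.36, 7.75 and 4.99 CPM in Control_6w, and a log2 difference of 0.38 (SE 0.549, edgeR adjusted p = 0.884), which was 0.08 without IRR_6w replicate 4 and 0.73 without IRR_6w replicate 3. Its lowest value was in IRR_6w replicate 3, a library with many genes at 0 counts.

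Ripk3, the kinase that phosphorylates MLKL (chromosome 14, 55784995 to 55788865, minus strand), had 5.29, 9.75, 25.0 and 12.2 CPM in IRR_6w and 5.63, 3.98, 12.9 and 4.65 CPM in Control_6w. The highest control was Control_6w replicate 3, the library with thymus transcripts, and the lowest irradiated heart was IRR_6w replicate 1, the library with lung transcripts. The log2 fold change was 0.94 (SE 0.536, edgeR adjusted p = 0.664). Without these 2 libraries it was 1.72 (SE 0.495, edgeR adjusted p = 0.156), and without the 3 libraries with most genes at 0 counts, a setting chosen after seeing the data, it was 0.15 (edgeR adjusted p = 0.953). The highest Ripk3 level was in 1 of these 3, IRR_6w replicate 3.
Casp8 (chromosome 1, 58795374 to 58847503, plus strand), which restrains necroptosis, had 22.2, 31.9, 47.6 and 42.5 CPM in IRR_6w and 25.9, 13.7, 37.4 and 20.1 CPM in Control_6w. Again the highest control and the lowest irradiated value came from these same 2 libraries. The log2 fold change was 0.57 (SE 0.374, edgeR adjusted p = 0.722), and 1.03 (SE 0.378, edgeR adjusted p = 0.326) without them. Without the 3 libraries with most genes at 0 counts it was 0.16 (edgeR adjusted p = 0.925), and with 1 library left out it ran from 0.34 to 0.86. Without Control_6w replicate 3 and IRR_6w replicate 1 the groups did not overlap for 3 of 10 genes, Casp4, Casp8 and Ripk3, against 18.6% of all genes. Ripk1, the kinase upstream of RIPK3 (chromosome 13, 34002363 to 34037147, plus strand), had 28.01, 27.0, 19.3 and 17.8 CPM against 23.0, 16.2, 25.4 and 20.6 CPM. The groups overlapped almost completely, at a log2 fold change of 0.11 (95% interval -0.43 to 0.65, edgeR adjusted p = 0.932), and this interval lies inside the fold limits. In the annotation 9.01% of its exonic bases are shared with Gm17084 and Serpinb6a.

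Among the other inflammasome genes, Il18, the cytokine released through gasdermin pores (chromosome 9, 50554827 to 50581840, plus strand), had 3.22, 1.45, 5.41 and 3.90 CPM in IRR_6w and 1.75, 0.46, 2.22 and 0.20 CPM in Control_6w. The lowest irradiated heart lay within the control range, and the log2 fold change was 1.58 (SE 0.954, exact permutation p = 0.0857, edgeR adjusted p = 0.697).
Nlrp3 (chromosome 11, 59541568 to 59566956, plus strand) had 1.78, 3.19, 0 and 5.70 CPM in IRR_6w and 0, 1.61, 0.34 and 1.15 CPM in Control_6w. In IRR_6w 3 hearts exceeded all controls and the remaining one had 0 counts, which by counting alone allows up to 3. That limit is too low in IRR_6w replicate 3, where many genes at 2 to 5 CPM also had 0 counts. The fitted log2 fold change was 1.78 (SE 1.47, edgeR adjusted p = 0.783), and ran from 1.09 without IRR_6w replicate 4 to 2.39 without Control_6w replicate 2.
Gsdmd, the pore protein of pyroptosis (chromosome 15, 75862327 to 75867408, plus strand), had 12.3, 13.6, 3.12 and 6.46 CPM against 8.98, 7.58, 16.1 and 9.23 CPM. The 2 lowest values were irradiated hearts and the highest was Control_6w replicate 3, with a log2 difference of -0.24 (SE 0.460, edgeR adjusted p = 0.916). Pycard (chromosome 7, 127989708 to 127993867, minus strand) had 6.33, 8.73, 4.01 and 5.32 CPM against 6.62, 5.43, 45.5 and 2.96 CPM. The single value of 45.5 CPM belongs to Control_6w replicate 3, the library with thymus and T cell transcripts. The log2 fold change of Pycard was -1.31 (SE 0.690, edgeR adjusted p = 0.631) with that library and 0.28 without it. Of the exonic bases of Pycard, 12.8% are shared with Gm45205 on the opposite strand.

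**Figure D2:**
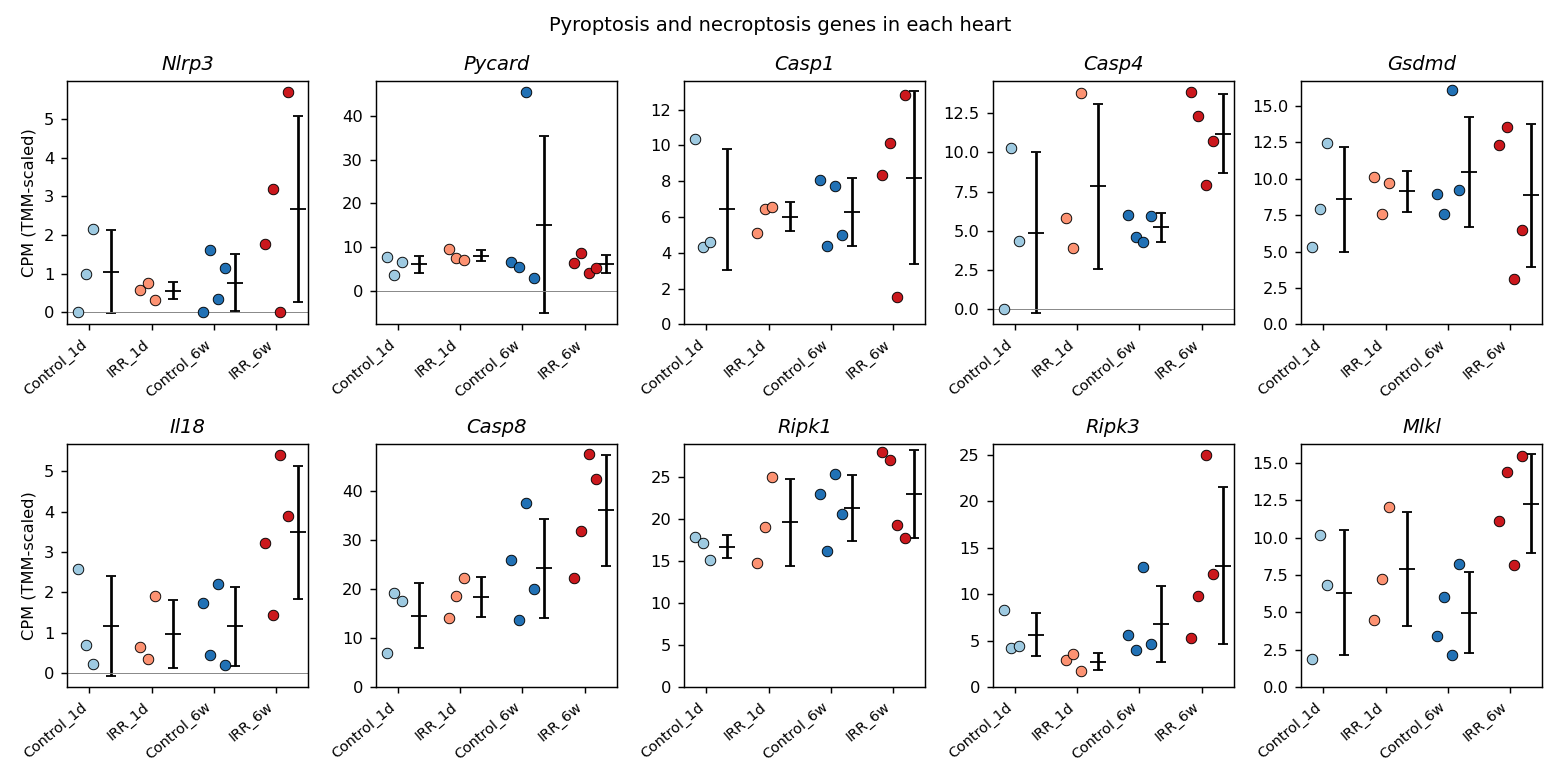
Level of the 10 genes in each heart, in TMM-scaled CPM on a linear axis for each gene. Points are mice, and the dash with bars beside them is the group mean and SD (n = 3 or 4). Casp4 separates IRR_6w from Control_6w, and the high Pycard value of 45.5 CPM is Control_6w replicate 3.

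Markers of macrophages and monocytes moved with the 6-week groups. The summed level of 10 such markers was 1145, 1469, 1288 and 1509 CPM in IRR_6w and 649, 679, 275 and 674 CPM in Control_6w, so the groups did not overlap. All 10 markers were higher in IRR_6w, with a median log2 fold change of 1.30, 8 of them at an unadjusted p under 0.05 and 0 called by edgeR. None of the 10 was at 0 in any 6-week library. The 8 cardiomyocyte markers had a median log2 fold change of -0.57. Of 5 fibroblast markers 4 were higher in IRR_6w, 3 at an unadjusted p under 0.05, with a median of 0.65. The 5 tested neutrophil markers were all higher, with a median of 1.21. So were all 4 B cell markers (median 1.43) and all 4 atrial markers (median 2.36), with 0 at an unadjusted p under 0.05 in either list. The median atrial sum ran the other way, at 15.98 CPM in IRR_6w and 105 CPM in Control_6w. The highest atrial sum, 2822 CPM, was in IRR_6w replicate 1. That library also had the highest B cell sum, 51.3 CPM. The B cell sums overlapped, at 8.41 to 51.3 CPM in IRR_6w and 2.76 to 18.1 CPM in Control_6w. All 6 T cell markers were lower, 5 at an unadjusted p under 0.05, with a median of -4.16. That value includes the 1386 CPM of Control_6w replicate 3. The median of the T cell sum ran the other way, at 15.24 CPM in IRR_6w and 10.65 CPM in Control_6w. For this sum the lower level in IRR_6w therefore rests on that 1 library. The part of these cell types in the values of Mlkl, Casp4, Ripk3, Casp8, Il18 and Nlrp3 was not tested.

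At 1 day, 6 of 10 log2 fold changes of IRR_1d against Control_1d were positive, with a median of 0.16 against 0.06 over all tested genes. By edgeR 0 of 10 genes were called, against 0.0249% of all genes, and 0 were past an unadjusted p under 0.05, against 2.9%. DESeq2 and limma also called 0. The groups did not overlap for 1 of 10, Ripk3, against 10.7% of all genes, so that 1 of 10 is near the background. Ripk3 had 2.96, 3.52 and 1.72 CPM in IRR_1d and 8.28, 4.23 and 4.39 CPM in Control_1d. All irradiated hearts were below all controls, with a log2 difference of -1.04 (SE 0.628, edgeR adjusted p = 1), and the exact permutation p was 0.1, the smallest that 3 against 3 allows. The highest value was in Control_1d replicate 1, the library with most genes at 0 counts, and without it the log2 fold change was -0.66.
The other necroptosis genes overlapped. Mlkl had 4.51, 7.21 and 12.03 CPM in IRR_1d against 1.88, 10.2 and 6.86 CPM in Control_1d. Casp8 had 14.1, 18.5 and 22.3 CPM against 6.96, 19.2 and 17.6 CPM. For both genes the lowest of the 6 values was Control_1d replicate 1. Ripk1 had 14.8, 19.1 and 25.0 CPM against 17.9, 17.1 and 15.2 CPM, a log2 fold change of 0.23 (95% interval -0.40 to 0.86).
In the inflammasome group, Casp4 had 5.80, 3.86 and 13.8 CPM in IRR_1d against 0, 10.3 and 4.31 CPM in Control_1d, the 0 again in Control_1d replicate 1. Its log2 fold change was 0.70 (SE 1.01), and ran from 0.0035 without IRR_1d replicate 3 to 1.86 without Control_1d replicate 2, with 0.11 without Control_1d replicate 1 and 2.97 by limma. Casp1 had 5.09, 6.44 and 6.54 CPM against 10.3, 4.33 and 4.62 CPM, with the irradiated values inside the control range. Pycard, Gsdmd, Nlrp3 and Il18 had log2 fold changes of 0.41, 0.09, -0.90 and -0.27, with SEs of 0.790, 0.533, 1.69 and 1.09. The 95% intervals at 1 day included a log2 fold change of 1 or of -1 for every gene but Ripk1, so these data leave room for a change of that size in either or both directions. The sum of macrophage and monocyte markers was 679 to 812 CPM in IRR_1d and 612 to 829 CPM in Control_1d. Of these markers 8 of 10 were higher in IRR_1d, with a median log2 fold change of 0.68, 1 at an unadjusted p under 0.05 and 0 called by edgeR. All 4 B cell markers were lower in IRR_1d, with a median of -3.92 and 2 at an unadjusted p under 0.05. Their sum was 32.85 CPM in Control_1d replicate 1, the library with most genes at 0 counts. It was 1.61 and 4.62 CPM in the other controls and 0.52, 1.63 and 0.59 CPM in IRR_1d, so the groups overlapped. All 5 fibroblast markers were higher, with a median of 0.78 and 1 at an unadjusted p under 0.05. The sum of 5 endothelial markers did not overlap, at 818 to 1019 CPM in IRR_1d and 1161 to 1485 CPM in Control_1d, while 2 of the 5 were higher in IRR_1d, the median was -0.24 and 0 had an unadjusted p under 0.05. Of 5 tested neutrophil markers 1 was higher, with a median of -1.48. The sum of 6 neutrophil markers was 43.3 CPM in Control_1d replicate 1 and 9.36 and 5.93 CPM in the other controls. In IRR_1d it was 9.34, 4.55 and 27.8 CPM, so these groups overlapped as well. By edgeR 0 markers of these lists were called. The part of these cell types in the Ripk3 values at 1 day was not tested.

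Between the irradiated groups, 8 of 10 genes had a positive log2 fold change of IRR_6w against IRR_1d, with a median of 0.57 against -0.02 over all tested genes. By edgeR 0 of 10 were called, against 0.0374% of all genes. Past an unadjusted p under 0.05 were 2 of 10, Ripk3 and Casp8, against 5.79%, and the groups did not overlap for 1 of 10, Ripk3, against 9.31%. All 4 IRR_6w hearts (5.29 to 25.0 CPM) exceeded all 3 IRR_1d hearts (1.72 to 3.52 CPM) in Ripk3. The log2 fold change was 2.25 (SE 0.624, 95% interval 0.92 to 3.59, unadjusted p = 0.00271, edgeR adjusted p = 0.448, rank 97 of 16034 by p), and the exact permutation p was 0.05714 where 0.02857 is the smallest possible. The call of Ripk3 depended on the tool and the libraries. DESeq2 called it (log2 fold change 2.26, DESeq2 adjusted p = 0.0232), limma did not, and edgeR called it without Control_6w replicate 3 and IRR_6w replicate 1 (2.52, edgeR adjusted p = 0.037). Over all alternatives tried its adjusted p ran from 0.0232 to 1 and its log2 fold change from 1.46 to 2.62.
Casp8 was at 22.2 to 47.6 CPM in IRR_6w and 14.1 to 22.3 CPM in IRR_1d, so that only the lowest late heart lay within the early range. Its log2 fold change was 0.98 (SE 0.413, edgeR adjusted p = 0.823). Il18 and Nlrp3 had log2 fold changes of 1.84 (SE 1.07) and 2.24 (SE 1.67), and Mlkl 0.63 (SE 0.597), all with overlapping groups. With 1 library left out Il18 ran from 1.41 to 2.79, the latter without IRR_1d replicate 3, Nlrp3 from 1.55 to 2.65, and Mlkl from 0.35 without IRR_1d replicate 1 to 1.06 without IRR_1d replicate 3. By limma Nlrp3 was at 0.97. Gsdmd was at -0.04 (SE 0.497), and at 0.24 without IRR_6w replicate 3. Of the macrophage and monocyte markers, 9 of 10 were higher in IRR_6w than in IRR_1d, at a median log2 fold change of 0.75. At an unadjusted p under 0.05 were 3 of them. Their sum did not overlap, at 1145 to 1509 CPM in IRR_6w and 679 to 812 CPM in IRR_1d. The sum of 4 B cell markers was 8.41 to 51.3 CPM in IRR_6w and 0.52 to 1.63 CPM in IRR_1d, with all 4 higher at a median log2 fold change of 4.23, and that of 6 T cell markers was 11.3 to 22.8 and 1.68 to 2.97 CPM, with all 6 higher at a median of 4.03. At an unadjusted p under 0.05 were 4 of the B cell and 2 of the T cell markers, and 0 were called by edgeR. All 5 tested neutrophil markers were higher, with a median of 1.46. Cardiomyocyte markers went the other way, with 0 of 8 higher and a median of -0.67. Of 5 fibroblast markers 1 was higher and 2 were lower at an unadjusted p under 0.05, with a median of -0.34. The part of these cell types in the Ripk3 difference was not tested.

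Time alone, seen in the controls, gave 6 positive and 4 negative log2 fold changes of Control_6w against Control_1d, with a median of 0.19 against 0.12 over all tested genes. By edgeR 0 of 10 genes and 0% of all genes were called, 0 were past an unadjusted p under 0.05 against 5.28%, and the groups overlapped for all 10, against 5.92% of all genes without overlap. DESeq2 and limma called 0 of the 10. Ripk3 had a log2 fold change of 0.27 (SE 0.580) in this comparison, which became -0.25 without Control_6w replicate 3 and IRR_6w replicate 1. Casp8 had 0.74 (SE 0.411), and 0.40 without Control_1d replicate 1. The Pycard value of 1.33 (SE 0.763) became -0.27 without Control_6w replicate 3.

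**Figure D3:**
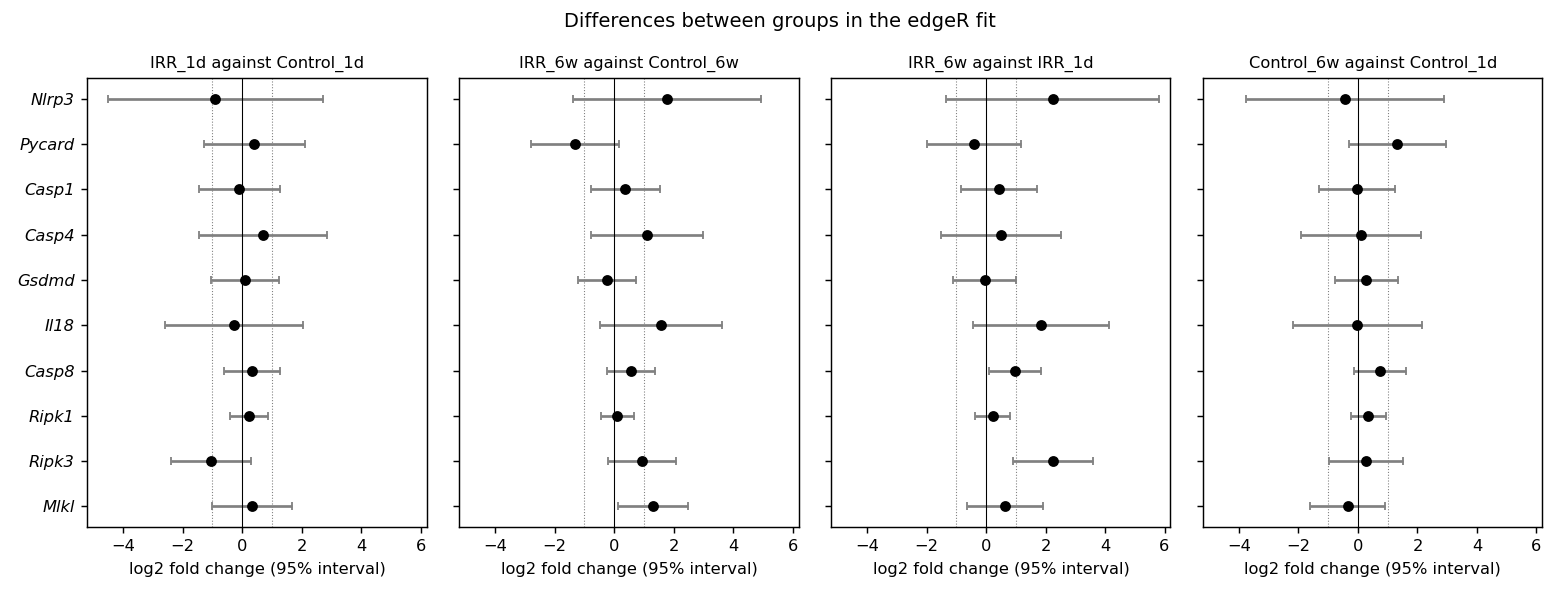
Log2 fold changes of the 10 genes in 4 comparisons from the edgeR fit, with 95% intervals, where dotted lines mark the fold limits of 2 and 0.5. The intervals of Mlkl at 6 weeks and of Ripk3 and Casp8 between the irradiated groups lie above 0, and no gene passed the adjusted test in this fit.

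Whether the irradiation effect itself differed between the times was tested with an interaction term. By edgeR 0 of 10 genes and 0% of all genes were called, and 1 of 10, Ripk3, was past an unadjusted p under 0.05, against 3.14%. Ripk3 was lower in irradiated hearts at 1 day and had a positive log2 fold change at 6 weeks, and the change in its effect was 1.99 (SE 0.826, unadjusted p = 0.0302, edgeR adjusted p = 0.99). It ran from 0.81, without the 3 libraries with most genes at 0 counts, to 2.77 over the alternatives tried. This value and the comparison of the irradiated groups share the IRR_6w and IRR_1d libraries. For Mlkl the change was 0.97 (SE 0.837) and for Casp4 0.41 (SE 1.33), with the Casp4 value at -1.86 by limma and -0.75 without Control_1d replicate 2. Averaged over both times, the irradiation effect was called for 0 of 10 genes by edgeR against 0.281% of all genes, with 0 past an unadjusted p under 0.05 against 7.52%. The averaged log2 fold changes of Casp4 and Mlkl were 0.90 (SE 0.669) and 0.82 (SE 0.420), and that of Ripk3 was -0.05 (SE 0.404), or 0.33 without Control_6w replicate 3 and IRR_6w replicate 1. The value of Casp4 was 2.04 by limma, 1.48 without Control_1d replicate 2 and 0.56 without IRR_1d replicate 3. DESeq2 and limma called 0 of the 10 in both of these comparisons.

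The other genes of both pathways were read from a list of 75 genes in 7 roles, of which 73 were in the table and 62 passed the filter. By edgeR 0 of the 62 were called in any comparison. At 6 weeks 40 had a positive and 22 a negative log2 fold change, with a median of 0.23, and 7 were higher and 1 lower at an unadjusted p under 0.05, so 8 of 62 against 8.81% of all genes. Where groups of single genes are said below not to overlap, the share over all genes is 5.72%. These genes were named for the smallest p of their role in this same comparison, or after their values were seen. That share of unselected genes is therefore no background for them, and their lack of overlap is a description only. Inflammasome sensors had the highest median, 1.22, with all 8 tested genes positive. Naip2, which binds the bacterial type III secretion apparatus and activates NLRC4, had 11.6, 11.02, 37.9 and 17.9 CPM in IRR_6w and 6.47, 5.28, 2.91 and 5.05 CPM in Control_6w. Every irradiated heart was above every control, with a log2 difference of 1.99 (SE 0.462, edgeR adjusted p = 0.104). The Naip genes are close paralogs, and how reads shared between them were counted is uncertain.
Among 11 inflammasome regulators 8 were positive, at a median of 0.47. P2rx7, the ATP-gated channel upstream of NLRP3, had 15.3, 20.6, 25.5 and 36.5 CPM against 12.3, 9.57, 6.44 and 12.4 CPM, again with no overlap. Its log2 fold change was 1.27 (SE 0.309, edgeR adjusted p = 0.118) at 6 weeks and 0.69 (SE 0.354, edgeR adjusted p = 1) at 1 day. All 9 tested genes of the IL-1 family were positive, at a median of 0.59. Il1rn, the IL-1 receptor antagonist, had 2.36, 2.65, 4.45 and 4.18 CPM against 0, 0, 0.68 and 0.81 CPM. The groups were apart, with few counts in the controls, and the fitted log2 fold change was 3.15 (SE 1.31, edgeR adjusted p = 0.491). The death receptor and RIP kinase complex was centred near 0, with 8 positive and 8 negative values and a median of 0.03. Its smallest p belonged to Tnfrsf1a, the main TNF receptor, at 0.49 (SE 0.234, edgeR adjusted p = 0.581). Tnfrsf1a had 73.8 to 94.45 CPM in IRR_6w and 48.5 to 66.1 CPM in Control_6w, without overlap.
The other necroptosis activators and effectors went both ways, with 4 positive and 7 negative values. Fas, a death receptor and p53 target, had 17.4, 11.3, 9.35 and 11.8 CPM in IRR_6w and 23.1, 21.9, 39.8 and 23.98 CPM in Control_6w. Every irradiated heart was below every control, with a log2 difference of -1.13 (SE 0.317, edgeR adjusted p = 0.18), whereas at 1 day the value was 0.09 (SE 0.362). Zbp1, a sensor that binds RIPK3, was named after its values were seen. It had 14.8, 28.4, 19.3 and 13.4 CPM in IRR_6w against 0, 0.92, 12.1 and 3.03 CPM in Control_6w, without overlap, and 6.44, 5.49 and 45.8 CPM in IRR_1d against 6.08, 2.11 and 3.70 CPM in Control_1d. Its log2 fold change at 6 weeks was 2.23 (SE 1.03, edgeR adjusted p = 0.563). Of the pore-forming and rupture proteins, only Gsdme and Ninj1 passed the filter, and Gsdme, the gasdermin cut by caspase-3, was at -0.53 (SE 0.475, edgeR adjusted p = 0.799). Of 5 apoptotic caspases 3 were positive, and Casp2 had the smallest p, at -0.56 (SE 0.465, edgeR adjusted p = 0.783). Its level was 75.0 CPM in Control_6w replicate 3, 16.0 to 19.2 CPM in the other 3 controls and 14.9 to 35.3 CPM in IRR_6w, so the negative sign rests on that 1 library.
At 1 day 31 of the 62 genes were positive and 31 negative, and 2 of 62 were past an unadjusted p under 0.05, near the 2.9% of all genes. These were Gbp2 and Gbp5, interferon-induced GTPases that promote inflammasome assembly, both higher in IRR_1d, at log2 differences of 1.60 (SE 0.411, edgeR adjusted p = 0.764) and 1.09 (SE 0.320, edgeR adjusted p = 1). They were named because there were only 2.

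**Figure D4:**
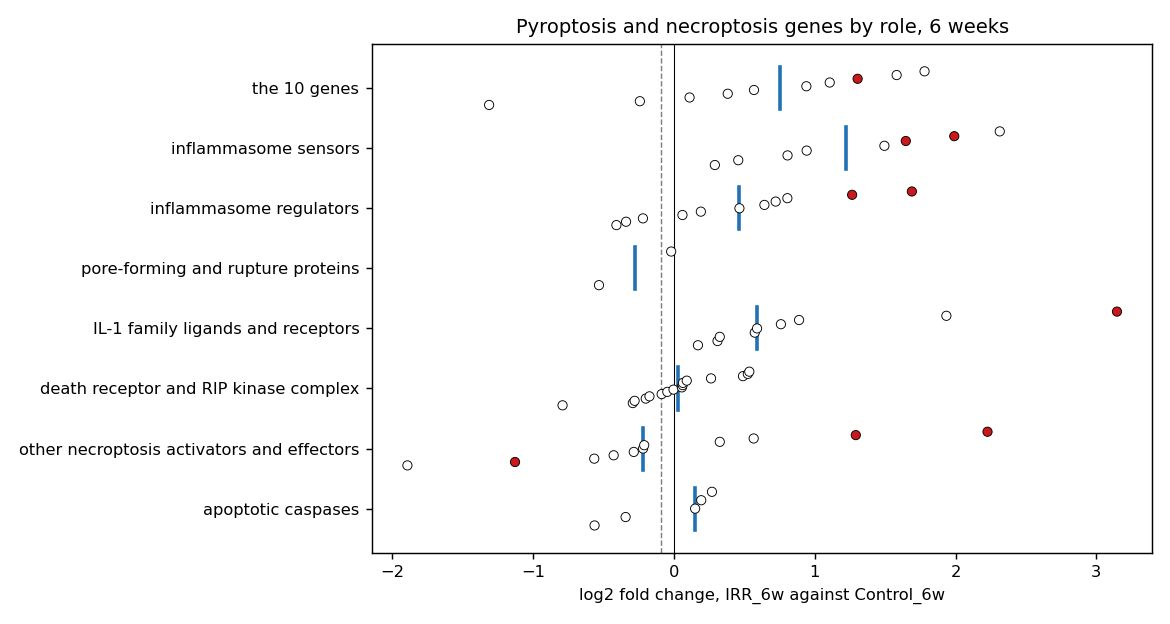
Log2 fold changes of IRR_6w against Control_6w for the 10 genes and for 62 other pathway genes by role, 1 point per gene. Filled points had an unadjusted p under 0.05, blue bars are medians and the dashed line is the median of all tested genes. Sensors have a median of 1.22 and the RIP kinase complex of 0.03.

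Across the 14 hearts the 10 genes did not vary as 1 group. The 45 pairs had Pearson correlations of log2 CPM from -0.54 to 0.75, with a median of 0.16, and 30 were positive. The highest was that of Casp4 and Mlkl (0.75), followed by Casp4 and Casp8 (0.69), Nlrp3 and Mlkl (0.66) and Ripk3 and Il18 (0.61). Casp1 and Casp4, neighbours on the chromosome, were not among these pairs. The lowest was Pycard with Mlkl, and it became -0.25 without Control_6w replicate 3, where Gsdmd with Ripk3 was at -0.59. Without that library Casp8 with Mlkl went from 0.43 to 0.71, above Nlrp3 with Mlkl (0.69) and Ripk3 with Il18 (0.60). Libraries share depth and cell makeup across genes, and the libraries with many genes at 0 counts enter every pair. The tested genes most like each member by the same measure over 14 libraries were Ptpre (0.92), Was (0.91) and Tbk1 (0.89) for Ripk3, Ankrd1 (0.90), Cda (0.90) and Cd72 (0.88) for Mlkl, and Fbxw17 (0.97), Igsf6 (0.97) and Npdc1 (0.96) for Casp4. For Casp8 they were Inpp5d (0.94), Parp10 (0.92) and Ptch1 (0.92), and for Il18 Lrrc59 (0.92), Cd44 (0.91) and Atp6v1a (0.91). Casp1 was closest to Trim46 (0.91), Naip6 (0.91) and Wdr62 (0.91), Nlrp3 to 1810006J02Rik (0.93), Gm15910 (0.92) and Plscr3 (0.91), Gsdmd to Sin3b (0.94), Cdk5rap2 (0.92) and Dctn5 (0.92), and Ripk1 to Gm35853 (0.84), Fcrla (0.81) and Gm13199 (0.80). The likeness of Pycard to Exosc8 (0.92), Rbm3 (0.92) and H3f3b (0.89) rested in part on Control_6w replicate 3, without which the values were 0.67, 0.72 and 0.48. Casp4 had 0 counts in Control_1d replicate 1. Its Spearman rank correlations were 0.70 with Fbxw17, 0.71 with Igsf6 and 0.84 with Npdc1, below the Pearson values.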

How the data were processed

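Cardiac RNA of 14 mice was sequenced. The authors deposited 1 table of whole-number counts per gene, with symbols, coordinates and gene lengths. The submitters' processing notes name FastQC 0.11.8, Trim Galore 0.6.1 and STAR 2.5.0a with mm10, and the study's methods name HTSeq for counting. Strandedness, counting mode and annotation release are not given in the sources used here. Reads shared between overlapping genes therefore cannot be assigned with certainty. Every deposited length of the 10 genes equals the union of exons in GENCODE M21.

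Counts were fitted with edgeR 4.0.16 in R 4.3.3 (filterByExpr, TMM, 4 groups in 1 model, quasi-likelihood test), and p-values were adjusted by Benjamini-Hochberg over 16034 genes. Self-tests ran on simulated data. CPM is the value of the edgeR cpm function on TMM-scaled library sizes, and FPKM is that value per kilobase of deposited length. Only the band of 2 to 5 CPM for genes at 0 counts used plain library totals. The SE is the log2 fold change divided by the square root of F. Exact permutation tests used log2(CPM + 0.5), two-sided. Correlations used log2 CPM with a prior count of 2. DESeq2 1.42.0, limma 3.58.1, other scalings, no filter, fits of the compared groups only, a replicate block and fits without single libraries served as alternatives. Totals of 13336746 to 16837265 counts limit precision most for Nlrp3 and Il18. A count of 0 allows up to 3 at 95% confidence, for counting error only.

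The members and gene lists were chosen with earlier results of these data known. By rule the text names the 10 genes, every called gene of the list of other pathway genes, the gene of each of its roles with the smallest p at 6 weeks, and for each of the 10 genes the 3 tested genes of highest Pearson correlation. Marker lists are given as sums, as counts of markers that were higher or past an unadjusted p under 0.05, or as median log2 fold changes. The marker sums of B cells, neutrophils, endothelium, fibroblasts, brown fat and germ cells were computed and are given with the other observations.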

Additional observations from a re-analysis of the deposited data

Results flagged for a closer look

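Pycard in Control_6w replicate 3 stood at 45.5 CPM, against 6.62 CPM in the next of the 4 Control_6w hearts, a gap of 0.914 of the range of the group. Groups of 4 were tested for such a gap in all 10 genes, 20 groups in all, and 1 stood out, while chance alone gives about 1 in 20. The same library held 2690 CPM of thymus genes and 1386 CPM of T cell genes, and their part in the Pycard value was not tested. Without it the log2 fold change of Pycard was 0.28 in place of -1.31 at 6 weeks.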

How the results depend on the processing

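The number of the 10 genes called was 0 in all 6 comparisons under each scaling, without the filter, with limma and with each library left out in turn (0 to 0), and 0 in the 4 comparisons of 2 groups fitted alone. In IRR_6w against IRR_1d it was 1 (Ripk3) with the DESeq2 Wald test and 1 (Ripk3) without Control_6w replicate 3 and IRR_6w replicate 1. With unadjusted p and the fold limits it was 1 in IRR_6w against Control_6w, 1 in IRR_6w against IRR_1d and 1 for the change in effect. The replicate numbers did not pair the samples, since 19 pairs with the same number had correlations of -0.364 to 0.422 and 3 were above 0.1. With the replicate block 0 of the 10 genes were called in each comparison, Casp1 at 1 day turned to 0.019 and Gsdmd between the irradiated groups to 0.070. With limma Nlrp3 at 1 day turned to 0.56 and the change in effect of Casp4 to -1.86. Without Control_6w replicate 3 and IRR_6w replicate 1, Pycard turned to 0.27 at 6 weeks and to -0.27 between the controls, and Ripk3 turned to -0.25 between the controls and to 0.33 for the averaged effect. Without the 3 libraries with most genes at 0 counts, a setting chosen after seeing the data, Casp1, Casp8, Gsdmd, Mlkl and Il18 at 1 day turned to 0.43, -0.0066, -0.16, -0.10 and 1.07, and Gsdmd to 0.31 at 6 weeks and 0.50 between the irradiated groups. In the same setting Ripk3 at 6 weeks moved from 0.94 to 0.15, Casp8 from 0.57 to 0.16 and Il18 from 1.58 to 1.00, and between the irradiated groups Ripk3 moved from 2.25 to 1.46 and Casp8 from 0.98 to 0.56. With each library left out in turn, the ranges at 1 day included both signs for Casp1 (-0.29 to 0.43), Casp8 (-0.0051 to 0.59), Gsdmd (-0.16 to 0.49), Il18 (-1.22 to 1.06), Mlkl (-0.10 to 0.86) and Nlrp3 (-1.49 to 0.21). At 6 weeks they did for Gsdmd (-0.52 to 0.042), Pycard (-1.65 to 0.28) and Ripk1 (-0.015 to 0.22), between the controls for Pycard (-0.27 to 1.66) and Ripk3 (-0.25 to 0.65), between the irradiated groups for Gsdmd (-0.32 to 0.24), for the change in effect of Casp4 (-0.75 to 1.10) and for the averaged effect of Ripk3 (-0.31 to 0.20). The cause was not tested. Scaling by library totals moved the median log2 fold change over all genes by 0.07 (1 day), 0.23 (6 weeks) and 0.31 (irradiated groups). It turned Gsdmd between the irradiated groups to 0.24 and the averaged effect of Ripk3 to 0.00648. Of the 62 other pathway genes, 5 to 9 were higher and 1 to 2 lower at an unadjusted p under 0.05 at 6 weeks with 1 library left out, and 10 and 2 of 61 without Control_6w replicate 3 and IRR_6w replicate 1.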

Other observations

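Markers of further cell types were summed in CPM per library. The 6 neutrophil markers summed to 13.7 to 75.9 CPM in IRR_6w and 8.11 to 30.7 CPM in Control_6w, and 4 B cell markers to 8.41 to 51.3 and 2.76 to 18.1 CPM. The 5 endothelial markers summed to 903 to 1553 CPM in IRR_6w and 488 to 1514 CPM in Control_6w, and 5 fibroblast markers to 1680 to 2299 and 751 to 1865 CPM. For 4 brown fat markers the sums were 85.7 to 1020 and 172 to 759 CPM. The 2 groups at 6 weeks overlapped in each of these sums. The 4 germ cell markers reached at most 3.20 CPM, in a Control_6w library.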
